A study of Mus musculus with 8 samples.

Results

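Papain-family cathepsins, the CTLA-2 inhibitors and cystatin C form the group of 10 genes described here, out of 18193 genes with a single-symbol probe set on the array. The members are the cathepsin genes Ctsw, Ctsb, Ctsl, Ctss, Ctsh, Ctsc and Ctsz, the CTLA-2 genes Ctla2a and Ctla2b, and the cystatin C gene Cst3. They were matched by symbol in the platform annotation, which gave 20 probe sets naming 1 member alone and 1 probe set naming both Ctla2a and Ctla2b. The set was chosen from measured values, being built around Ctsw and Ctla2a, which earlier work on these arrays had found at least 2-fold higher after stimulation in each line. Changes with stimulation are therefore given for the members as a description, with no test.

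Papain-family cathepsins are cysteine proteases made as inactive precursors, in which a propeptide lies across the active site until it is cut off in the acidic lysosome. Most of them break down protein in lysosomes, and some are secreted and cut extracellular matrix. The CTLA-2 proteins were first found in activated mouse T cells and mast cells and resemble the propeptide of cathepsin L, and they inhibit cathepsins of that kind. Cystatin C is a secreted inhibitor of the family.

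The data were 8 single-colour expression arrays of 4 mouse epithelial lines. EpH4 and NMuMG come from mammary gland, mProx from proximal renal tubule and MCT from renal tubule. Resting cells had no added growth factor. Stimulated cells had recombinant human TGF-β1 and EGF for 24 h, each at 3 ng/mL, and both groups had first spent 24 h in a defined medium holding insulin and transferrin. Each line gave 1 resting and 1 stimulated array, and EpH4 carries the label of resistance to epithelial-mesenchymal transition. With total RNA of a whole culture, a larger share of expressing cells and more RNA per cell cannot be told apart.

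Levels are log2 values after an offset of 10.6 and quantile normalization, and a change is the stimulated minus the resting level of a line. Median deposited signals ran from 41.5 to 59.7 over the 8 arrays, and levels under 5.27, the limit for testing a gene, are called dim. The median change of all tested genes lay between -0.02 and 0.05 in the 4 lines, but between -0.28 in EpH4 and 0.35 in NMuMG on the deposited scale. Small changes can therefore turn sign with the scaling. Of 7 epithelial markers, Krt8 and Krt18 were not dim on any array, whereas the E-cadherin gene Cdh1 was dim on all arrays of mProx and MCT. Cldn3 and Cldn7 were dim on all arrays but those of EpH4. Epcam was dim in NMuMG and mProx but at 6.67 in resting MCT. Ocln was dim in mProx alone and at 7.33 in resting MCT. The kidney genes Pax8 and Cdh16 were well above the limit in mProx and MCT, whereas the water channel gene Aqp1 was dim in MCT and the endocytic receptor gene Lrp2 stood at 5.96 and 5.99 in resting mProx and MCT against 6.09 and 6.57 in the mammary lines. The milk protein gene Csn2 was dim on all 8 arrays, Krt14 was at 10.22 in resting EpH4 but dim in the other lines, and Krt19, listed for mammary gland, was at 8.72 in resting MCT.

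The CTLA-2 genes are printed first because their upstream sequences can be compared directly. Sequences of 250 bases before the annotated start, from RefSeq on GRCm38.p6, were found for 7 of the 10 members. None was found for Ctsw, Ctsb or Ctsh. Ctla2a and Ctla2b lie on chromosome 13, with 1 other protein-coding gene, Tpbpb, between them in that annotation. Shown are chr13:60936626-60936875 for the first listed start of Ctla2a and chr13:60897448-60897697 for Ctla2b, both on the minus strand, read 5′ to 3′. Capitals mark CAGAC or its reverse complement GTCTG, the core letters of the SMAD-binding element, and TGANTCA, the AP-1 letters.
Ctla2a: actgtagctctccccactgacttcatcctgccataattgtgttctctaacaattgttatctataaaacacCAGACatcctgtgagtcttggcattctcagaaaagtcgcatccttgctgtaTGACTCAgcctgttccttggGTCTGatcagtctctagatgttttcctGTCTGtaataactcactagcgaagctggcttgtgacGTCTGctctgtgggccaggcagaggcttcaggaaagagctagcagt
Ctla2b: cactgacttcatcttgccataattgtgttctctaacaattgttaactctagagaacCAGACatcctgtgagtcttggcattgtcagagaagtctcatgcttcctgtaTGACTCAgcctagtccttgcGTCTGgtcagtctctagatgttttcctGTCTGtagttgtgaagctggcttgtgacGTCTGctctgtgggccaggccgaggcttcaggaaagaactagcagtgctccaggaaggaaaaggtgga
The pair shared 208 of 228 aligned bases, an identity of 91.2%. Each window held 4 CAGAC cores and 1 AP-1 match, and all 5 Ctla2a matches lay at aligned positions in Ctla2b. On either strand, 42.2% of 32851 promoter windows of this length held CAGAC, and 0.475% held at least 4, a count looked up after the pair had been seen. The AP-1 letters were in 6.75% of windows. The E-box CACGTG, in 6.02% of windows, was in neither, and among the other members with a sequence it was in that of Ctsl. CAGAC was also in the windows of members with small changes, at 1 match for Ctsl, 2 for Ctsz and 2 for Cst3, and in neither that of Ctss nor that of Ctsc. These matches describe letters only.

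Ctsw, encoding cathepsin W, a papain-family member known from cytotoxic T and natural killer cells, had the highest mean change of all 12570 genes tested under the 3 scalings run, and ranked 2 with an offset of 1 or 64 in place of 10.6. Its resting log2 levels were 7.44 in EpH4, 3.99 in mProx, 5.10 in MCT, with 7.54 in NMuMG. After stimulation they were 9.44, 7.24, 10.63 and 9.74 in the same order. The mammary lines thus started above the kidney lines, and stimulated MCT ended highest while stimulated mProx was still below both resting mammary arrays. That last order depended on the scaling, since the deposited signal of stimulated mProx, 154.2, was above that of resting NMuMG, 129.6. Deposited signals rose from 6.1 to 154.2 in mProx, from 22.9 to 1351.1 in MCT, from 208.3 to 755.6 in EpH4 and from 129.6 to 775.6 in NMuMG. The log2 changes were 2.00 in EpH4, 3.25 in mProx, 5.54 in MCT, with 2.20 in NMuMG, a mean of 3.25 ± 1.62 (SD, n = 4 lines). In MCT it was the largest increase of all genes tested, under each of these scalings and offsets. Resting mProx and MCT were dim for Ctsw, so the size of its change there depends on the offset. With an offset of 64 it was 1.57 in mProx and 4.23 in MCT, and with an offset of 1 it was 4.50 and 6.01.

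**Figure D1:**
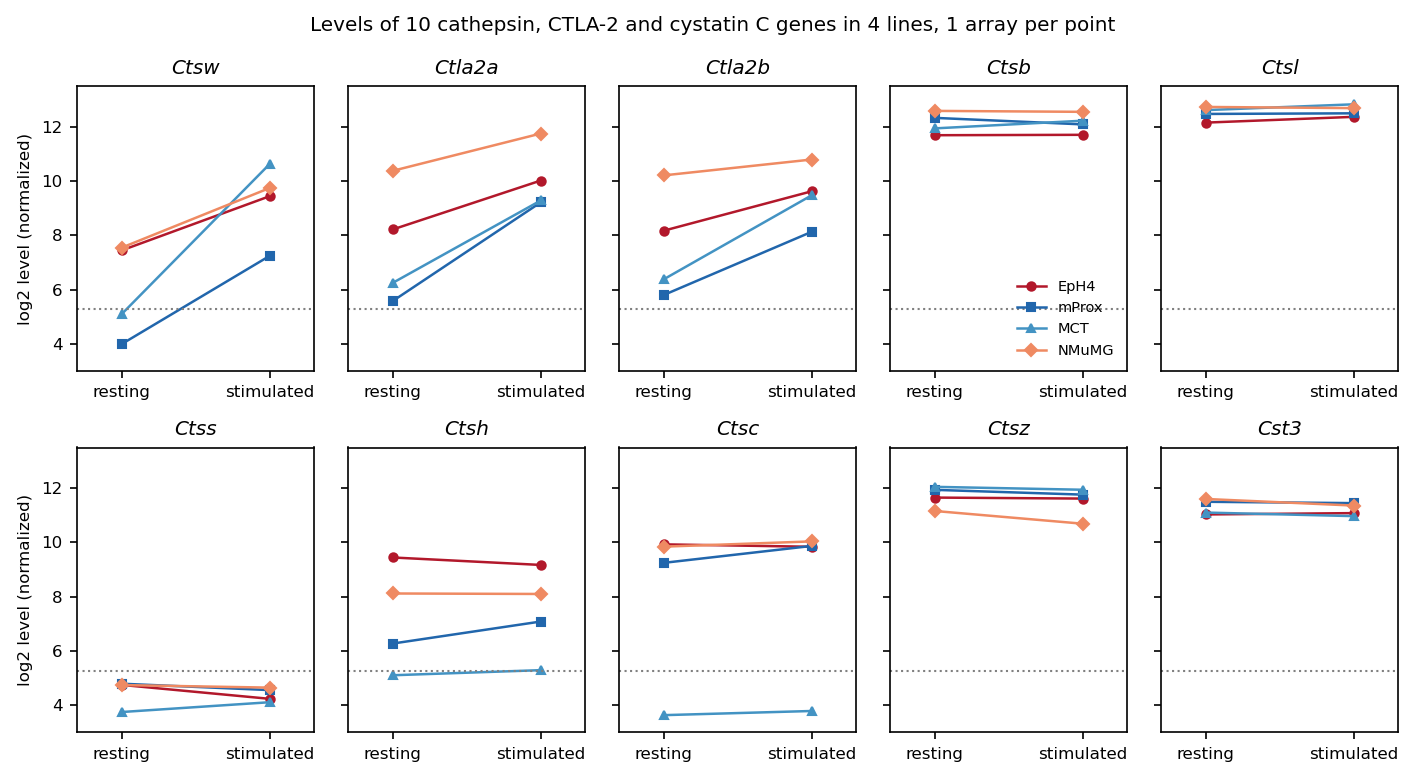
Log2 level (vertical axis) of each of the 10 members, by its representative probe set, in resting and stimulated cells, with 1 line drawn per cell line, 1 array per point and the dotted line at the dim limit of 5.27. Ctsw, Ctla2a and Ctla2b lines slope upward in each cell line, Ctsb, Ctsl, Ctsz and Cst3 stay within narrow bands, Ctss is dim throughout, and MCT lies apart from the other lines for Ctsc.

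Ctla2a gave resting levels of 8.21 in EpH4, 5.58 in mProx, 6.24 in MCT, with 10.37 in NMuMG. Stimulated levels were 10.02, 9.21, 9.28 and 11.75 in that order. The stimulated kidney lines reached levels above resting EpH4 but below resting NMuMG, so the resting and stimulated groups overlapped although each line was higher after stimulation. The changes were 1.80 in EpH4, 3.64 in mProx, 3.04 in MCT, with 1.37 in NMuMG, a mean of 2.46 ± 1.05 (SD, n = 4 lines). In the kidney lines the size depended on the offset. With an offset of 64 the change was 2.68 in mProx and 2.39 in MCT, and with an offset of 1 it was 3.94 and 3.21. The span between the lowest and highest line was 4.80 at rest and 2.53 after stimulation. The order of the changes was the reverse of the order of the resting levels, except on the deposited scale. There the NMuMG change of 1.87 was above the EpH4 change of 1.55. A change has the resting level subtracted, so part of such an order is built in and nothing is read from it.

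Ctla2b, the neighbouring copy, followed the same order at rest, with 8.17 in EpH4, 5.80 in mProx, 6.38 in MCT, with 10.21 in NMuMG. Stimulated levels were 9.62, 8.13, 9.47 and 10.79. Its changes of 1.45 in EpH4, 2.33 in mProx, 3.10 in MCT, with 0.59 in NMuMG had a mean of 1.87 ± 1.09 (SD, n = 4 lines). The line that started lowest, mProx, did not have the largest change, which was that of MCT. With an offset of 64 the change was 1.61 in mProx and 2.49 in MCT, and with an offset of 1 it was 2.55 and 3.26. NMuMG, where Ctla2b started highest, had the smallest change. That value depended on the scaling, at 0.82 with arrays shifted to a common median and 1.00 on the deposited scale, where it stayed just short of 2-fold.

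The probe set naming both CTLA-2 genes changed by 1.83 in EpH4, 3.45 in mProx, 3.11 in MCT, with 1.11 in NMuMG. Across the 8 arrays its levels correlated with those of the Ctla2a probe set at r = 0.998 and of the Ctla2b probe set at 0.985, and the latter 2 with each other at 0.976. The 8 points are 4 pairs of arrays that share a line. Because the copies are so alike, the signals of these probe sets may not separate the genes, and how much each contributed was not tested. Ctsw and Ctla2a correlated less closely, at 0.838.

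**Figure D2:**
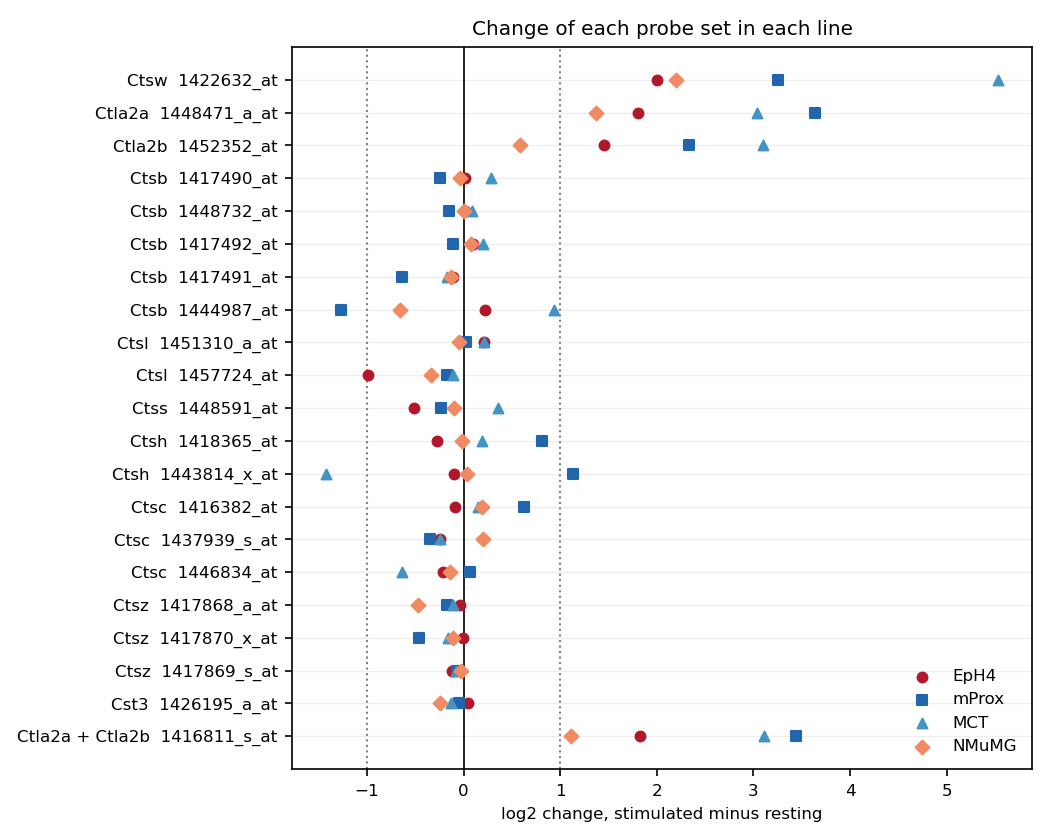
Log2 change with stimulation (horizontal axis) of each of the 21 probe sets, 1 symbol per line, with dotted lines at 2-fold lower and higher. The Ctsw probe set and the 3 CTLA-2 probe sets lie to the right in each line, with NMuMG lowest among the CTLA-2 values at 0.59 to 1.37, and the other probe sets spread around 0.

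By representative probe set, 3 members were at least 2-fold higher in EpH4, where 1.35% of all genes tested were. The count was 3 in mProx (background 2.81%), 3 in MCT (2.70%) and 2 in NMuMG (3.10%), and those in each line were Ctsw, Ctla2a and, outside NMuMG, Ctla2b. In all 4 lines, 2 members were at least 2-fold higher, against 0.0636% of genes, and 0 at least 2-fold lower, against 0.0159%. No member was at least 2-fold lower in a line, against 1.06% of genes in EpH4, 2.54% in mProx, 2.75% in MCT, with 2.00% in NMuMG. Since these changes chose the set, nothing is read from the counts. Of the 10 members 9 passed the level filter, and Ctss did not. The median change of the 9 was 0.05 in EpH4, 0.62 in mProx, 0.21 in MCT, with -0.02 in NMuMG.

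**Figure D3:**
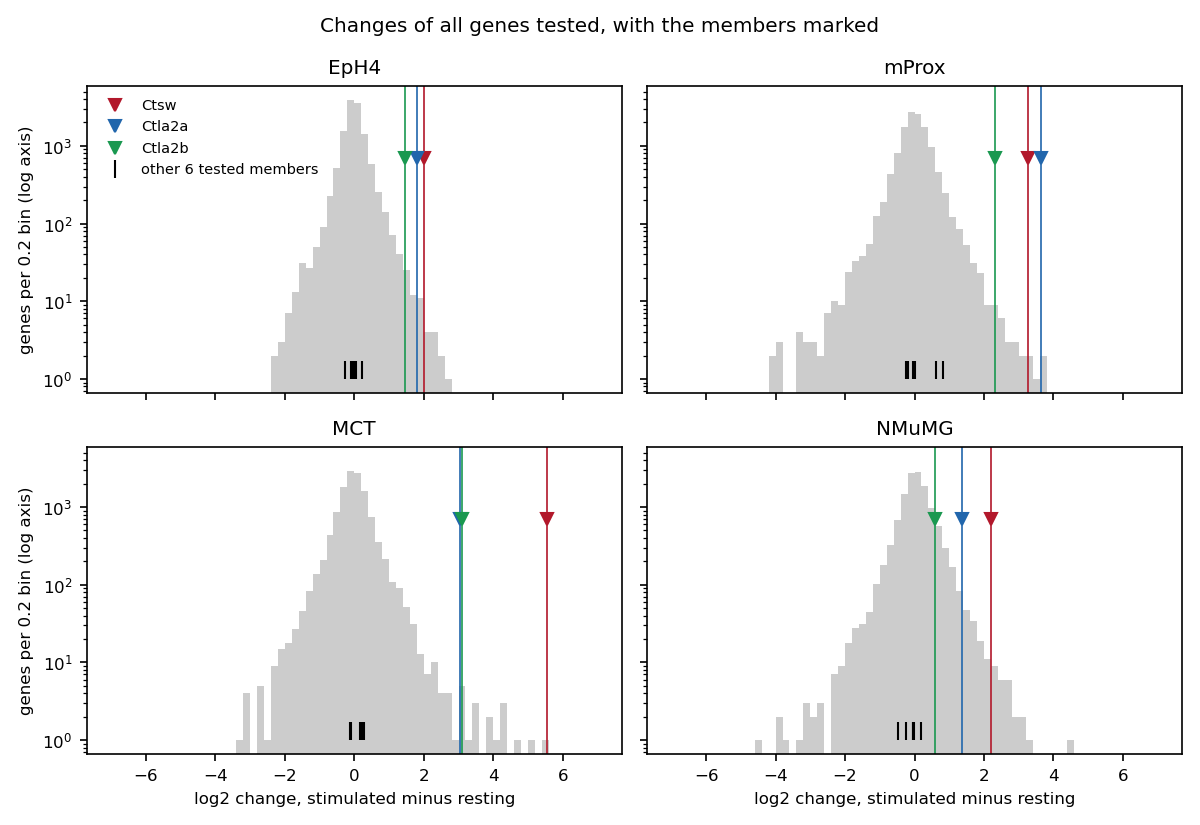
Number of genes (vertical log axis) by log2 change (horizontal axis) for all 12570 genes tested, 1 panel per line, with vertical lines at Ctsw, Ctla2a and Ctla2b and ticks for the other 6 members tested. Ctsw lies at the right end in MCT at 5.54, and Ctla2b lies inside the main body in NMuMG at 0.59. Of the other members tested, by representative probe set, those furthest from 0 are Ctsh at 0.81 and Ctsc at 0.62, both in mProx.

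Ctsb and Ctsl encode the widely expressed lysosomal endopeptidases cathepsin B and cathepsin L. Ctsb had resting levels of 11.69 in EpH4, 12.33 in mProx, 11.94 in MCT, with 12.58 in NMuMG, near the top of the scale. After stimulation they were 11.70, 12.09, 12.22 and 12.55, a mean change of 0.01 ± 0.22 (SD, n = 4 lines) with 2 lines higher and 2 lower. A second bright Ctsb probe set had a mean change of -0.01 ± 0.10, and another one of 0.07 ± 0.13. A further one was lower in each line, by 0.11 in EpH4, 0.64 in mProx, 0.17 in MCT, with 0.13 in NMuMG, but was higher in NMuMG on the deposited scale and with arrays shifted to a common median. The dimmest, under the limit on 4 of the 8 arrays, spread from -1.27 in mProx to 0.93 in MCT. Ctsl levels went from 12.15 to 12.36 in EpH4, from 12.47 to 12.49 in mProx, from 12.61 to 12.83 in MCT and from 12.73 to 12.68 in NMuMG. At such levels a rise may not show on the array. The Ctsl mean change was 0.10 ± 0.13, higher in 3 of 4 lines. With arrays shifted to a common median, 4 of 4 were higher. A second Ctsl probe set went the other way, lower in each line by 0.10 to 0.99, but it was above the dim limit in mProx alone, where its change was -0.17.

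Ctsz, encoding the carboxypeptidase cathepsin Z, was at 11.65 in EpH4, 11.94 in mProx, 12.05 in MCT, with 11.16 in NMuMG at rest. It was at 11.62, 11.76, 11.94 and 10.69 after stimulation. All 3 Ctsz probe sets were lower in each of the 4 lines, by at most 0.47, with a mean change of -0.20 ± 0.19 for the brightest. The sign in all lines depended on the scaling, since each probe set was higher in 1 line with arrays shifted to a common median. On the deposited scale 2 of the 3 were higher in NMuMG, by 0.34 and 0.27.

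Ctsh, an aminopeptidase of the family, spanned 4.34 between the lines at rest, with 9.45 in EpH4, 8.12 in NMuMG, 6.28 in mProx and 5.11 in MCT. After stimulation it was at 9.17, 8.10, 7.09 and 5.29 in that order, so the order of the lines was unchanged. The changes were -0.28 in EpH4, -0.02 in NMuMG, 0.81 in mProx and 0.19 in MCT. Its second probe set, marked as cross-hybridising, was higher in mProx by 1.13 and had a change of -1.42 in MCT between 2 values near or below the dim limit.

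Ctsc encodes cathepsin C, the dipeptidyl peptidase that activates granule serine proteases. It was at 9.93 in EpH4, 9.85 in NMuMG and 9.25 in mProx at rest, but at 3.64 in MCT, where the deposited signal was 1.7. After stimulation it was at 9.84, 10.04 and 9.87 in those lines and at 3.79 in MCT. MCT thus stood apart from the other lines by at least 5.61 at rest, a size that its dim level ties to the offset: it was 3.33 with an offset of 64 and 7.73 with an offset of 1. A second Ctsc probe set was also lowest in MCT, at 3.70 at rest and 3.45 after stimulation. The third was dim on 7 of the 8 arrays.

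Ctss, the cathepsin of antigen-presenting cells that trims the invariant chain, was dim on all 8 arrays, with levels from 3.75 to 4.79 and deposited signals from 2.7 to 20.1. Its change of -0.12 ± 0.37 lies between dim values, so a change of small size could not be seen. Cst3, the cystatin C gene, was at 11.03 in EpH4, 11.50 in mProx, 11.10 in MCT, with 11.60 in NMuMG at rest. It was at 11.08, 11.45, 10.97 and 11.36 after stimulation, a mean change of -0.09 ± 0.12. Of the 3 inhibitor members, both CTLA-2 genes were higher after stimulation in each line, while the Cst3 change was at most 0.24 in size.

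Ctsw and Ctss are genes of leukocytes, so leukocyte markers were read on the same arrays. Of 18 such markers on the array, 13 were above the dim limit on at least 1 array and 5 on every array. The pan-leukocyte gene Ptprc, the T cell genes Cd3d, Cd3g and Cd2 and the cytotoxic granule gene Nkg7 were dim on all 8 arrays. Other T cell and cytotoxic genes were not: Prf1, encoding perforin, was just above the limit on every array, at 5.55 to 6.22, and Cd8a reached 6.84 and Cd3e 6.02 at rest. The granzyme genes Gzma and Gzmb reached 5.37 and 5.54, both in resting mProx. Cd14 was at 11.09 and Csf1r, the macrophage growth factor receptor gene, at 10.91 on their highest arrays, resting NMuMG and resting mProx. The summed signal of the list ran from 881 to 3251 at rest and from 848 to 1481 after stimulation. It was higher after stimulation in 1 of 4 lines, MCT, at 1378 against 1138 at rest, and MCT also had the largest Ctsw change. Among markers not dim on both MCT arrays, Cd14 went from 8.79 to 9.61 there, and Cd68, Tyrobp and Cd79a were also higher. Cd3e, Cd8a, Gzmb, Prf1, Csf1r and Adgre1 were lower in MCT after stimulation. Of 7 endothelial markers 3 were above the limit on an array, with sums of 110 to 151 at rest and 88.1 to 196 after stimulation, higher in 3 of 4 lines. Pecam1 and Tie1 were dim on all 8 arrays. Fibroblast markers were led by Dcn in mProx, at 10.56 at rest and 7.53 after stimulation, and the list summed to 203 to 1998 at rest and to 217 to 491 after stimulation, higher in 3 of 4 lines. The part of the leukocyte, endothelial and fibroblast sums in the members' changes was not tested.

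Resting kidney and mammary lines were then compared. This contrast was not the one that chose the members, but their resting levels were part of the changes that did. Ctsw was lower in the kidney lines by a log2 difference of -2.95 (SE 0.56), at a mean of 4.54 against 7.49, although limma's adjusted p was 0.343. Both kidney values were dim, so the size rests on the offset, and the difference was -1.59 with an offset of 64 and -3.78 with an offset of 1. The differences were -3.38 for Ctla2a (SE 0.84, limma adjusted p = 0.444), -3.10 for Ctla2b (SE 0.80, limma adjusted p = 0.467) and -3.09 for Ctsh (SE 0.71, limma adjusted p = 0.427). For these genes both kidney lines were below both mammary lines, and Ctsh was dim in MCT. With an offset of 64 the differences were -2.61 for Ctla2a, -2.41 for Ctla2b and -2.22 for Ctsh. They were -3.62, -3.30 and -3.39 with an offset of 1. Ctsc had a difference of -3.45 with a larger SE of 1.81, since mProx and MCT were far apart, and it was -0.64 when MCT was left out, -2.26 with an offset of 64 and -4.51 with an offset of 1. Ctsz was higher in kidney by 0.59 (SE 0.27). Ctsb, Ctsl and Cst3 overlapped between the tissues, with differences of 0.00, 0.10 and -0.02.

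Over the 9 members tested, 5 had both kidney lines below both mammary lines, where 16.3% of all genes did, and 1 had them above, where 20.7% did. Members' resting levels also entered the changes that chose the set, and the CTLA-2 probe sets may not separate the genes. Nothing is therefore read from these counts. None of the 9 passed limma's test, nor did any other of the 12570 genes (0%), against 917 genes at an unadjusted p under 0.05. The smallest adjusted p of any gene was 0.31. The comparison rests on 2 lines per tissue, and tissue cannot be told apart from other properties of these lines.

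Other papain-family and lysosomal cathepsin genes and their processing factors were read from a list. Of 18 listed genes all were on the array and 8 were tested, and the placental cathepsin genes, such as Cts7 and Ctsj, were among those too dim to test. In the response over all 4 lines, 0 of the 8 passed limma's test, as did 0% of all genes, with 2 of the 8 and 1453 of all 12570 at an unadjusted p under 0.05. On the deposited scale 236 genes passed, 108 higher and 128 lower, with Tinagl1 the only one of the 8. The median change was -0.14, against 0.01 over all genes tested, and 4 of the 8 were lower in each line, where 9.24% of all genes were. On the deposited scale 2 of the 8 were lower in each line, against 1078 of all 12570 genes. With arrays shifted to a common median 2 were as well, against 869. Tinagl1, a secreted papain-like protein without protease activity, changed by -0.68 ± 0.44 (SD, n = 4 lines; limma adjusted p = 0.192). It was lower in each line under these 3 scalings, at -1.22 in MCT and -0.16 in EpH4. Lgmn, encoding legumain, which processes cathepsin precursors, changed by -0.21 ± 0.19, and the bleomycin hydrolase gene Blmh and the cathepsin O gene Ctso by -0.14 and -0.15. In NMuMG the Lgmn change was 0.25 on the deposited scale and 0.07 with arrays shifted to a common median.

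Genes outside the naming rule, picked after their values were seen, moved in 1 line. Ctsf, the cathepsin F gene, went from 4.30 to 7.73 in MCT, a change of 3.43, against -0.43 in EpH4, 0.20 in mProx and -0.59 in NMuMG. MCT was dim for Ctsf at rest. The aspartic protease gene Ctse changed by 1.93 in NMuMG and by at most 0.20 in size in the other lines. Tinag, the tubulointerstitial nephritis antigen gene, went from 7.15 to 3.99 in mProx, a change of -3.16, and was dim on both arrays of the other 3 lines. With 1 array per condition these values have no replicate check.

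Cystatins and related inhibitors were mostly too dim, with 4 of the 13 on the array tested. None of the 4 had the same sign in each line, 0 passed limma's test, and the median change was 0.11. At an unadjusted limma p under 0.05 there were 0 of the 4, against 1453 of all 12570 genes. None was thus named by the rule, and 2 are given that were chosen after their values were seen. Cstb, the intracellular cystatin B gene, changed by -0.02 ± 0.11. Cst6, the cystatin M gene, ranged from -0.95 in NMuMG to 1.48 in mProx. In mProx it was dim at rest, at 4.05, and at 5.52 after stimulation.

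Lysosomal membrane, enzyme and sorting genes gave 31 tested of 34 listed. In limma's test of the response 0 of the 31 passed, with 8 at an unadjusted p under 0.05, against 1453 of all 12570 genes. Their median change was -0.11, with line medians of 0.04 in EpH4, -0.28 in mProx, -0.07 in MCT, with -0.10 in NMuMG. The NMuMG median was 0.03 with arrays shifted to a common median and 0.21 on the deposited scale. In each line 6 of the 31 were lower, against 9.24% of all genes, and 1 was higher, against 10.3%. With arrays shifted to a common median 4 were lower in each line and 1 higher, against 869 and 1518 of all 12570 genes. On the deposited scale 7 were lower and 0 higher, against 1078 and 362. Tfeb, the transcription factor of lysosomal genes, was lower in each line under these 3 scalings, with changes of -0.42 in EpH4, -0.35 in mProx, -1.10 in MCT, with -1.20 in NMuMG and a mean of -0.77 ± 0.44 (limma adjusted p = 0.208). On the deposited scale it passed, as the only one of the 31. The acid glucosidase gene Gaa changed by -0.48 ± 0.48, the sulfamidase gene Sgsh by -0.35 ± 0.23 and the proton pump gene Atp6v1h by -0.27 ± 0.13. Gaa was at -1.18 in mProx. In NMuMG its change was 0.18 on the deposited scale and 0.01 with arrays shifted to a common median.

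**Figure D4:**
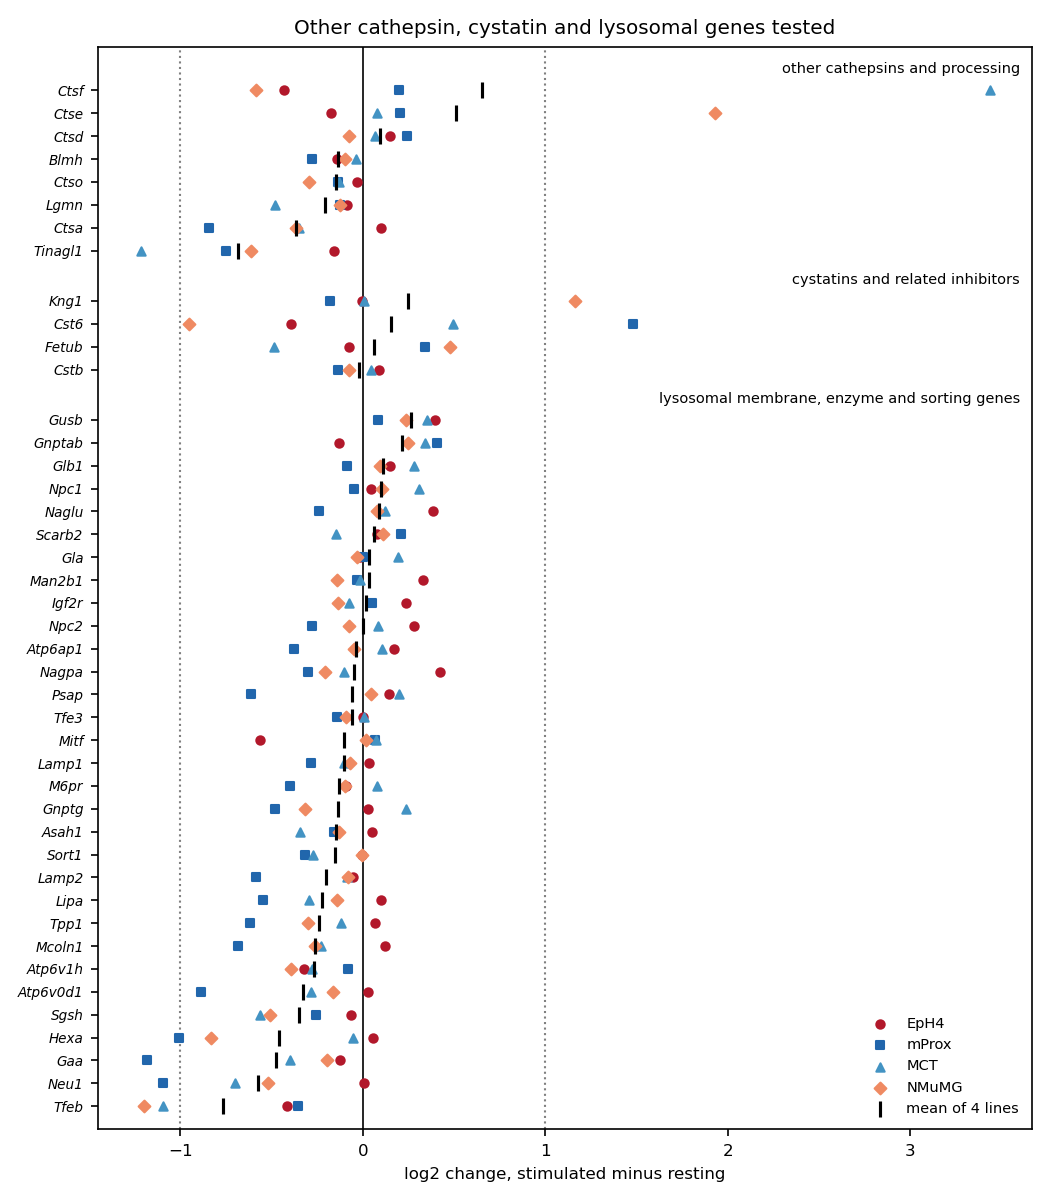
Log2 change with stimulation (horizontal axis) of the 8 cathepsin and processing genes, 4 cystatins and 31 lysosomal genes tested, 1 symbol per line and a bar at the mean of the 4 lines, with dotted lines at 2-fold. Ctsf in MCT at 3.43 and Ctse in NMuMG at 1.93 lie far to the right, and Tfeb lies to the left in each line.

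The genes most like Ctsw and Ctla2a were found by Pearson correlation of log2 levels over the 8 arrays, among 12561 tested genes that are not members. Closest to Ctsw were Pdgfa, a platelet-derived growth factor chain, at r = 0.961, and the immediate early gene Ier2 at 0.954, followed by 2310047D07Rik, Arr3 and Gm5600. Pdgfa changed by 0.55 in EpH4, 0.51 in mProx, 1.77 in MCT, with 0.68 in NMuMG, highest in MCT as for Ctsw. Closest to Ctla2a were the ETS factor gene Elk3 at 0.984, the adaptor gene Dok1 at 0.982, Ccbe1 at 0.966, the netrin receptor gene Unc5b at 0.951 and Msn, encoding moesin, at 0.951. Ccbe1, a secreted protein of lymphatic growth, had changes of 1.10 in EpH4, 3.34 in mProx, 4.74 in MCT, with 0.75 in NMuMG. Its resting levels of 8.96, 5.10, 5.40 and 10.74 followed the order of Ctla2a. These correlations describe 4 pairs of arrays and carry no test. A shared order of lines follows in large part from picking the genes by these same levels.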

How the data were processed

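Deposited values were probe set intensities on a linear scale, made with MAS5 per the submitters' processing notes; its version, scaling target and build: not given in the sources used here. Signal stands in for depth, and the number of arrays limits precision. After 64 control probe sets were left out, log2(signal + 10.6) was quantile-normalized in R 4.3.3, the offset being the 25th percentile of positive signals. Each gene was represented by its brightest probe set, avoiding the _s_at and _x_at suffixes, and genes with a mean level of at least 5.27, the 40th percentile, were tested.

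limma 3.58.1 (eBayes with an intensity trend, Benjamini-Hochberg threshold 0.05) fitted the response with the line as a block, and resting kidney against mammary lines. Arrays of a line pair by name, and their deviations correlated at 0.811 to 0.905. Nothing in the labels says that samples were separate cultures, so a p-value reflects just the spread among these 4 lines, which may be technical in part. The code was tested on simulated data. Alternatives changed the scaling, offset, filter, trend, probe set, block and lines. Members and lists were chosen with earlier results of these data known. The text names the members, up to 4 genes per list (past the threshold, then the largest with the same sign in each line) and the 5 genes most like Ctsw and Ctla2a; list genes whose values are given outside this rule are marked there.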

Additional observations from a re-analysis of the deposited data

Results flagged for a closer look

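Within the 4 resting arrays 1 Ctsc value lay far from the others, with a gap to the nearest of 0.892 of the group's range, past Dixon's limit, and within the 4 stimulated arrays the gap was 0.968 of the range. On both occasions the low value was that of MCT. Ctss gave a gap of 0.952 of the range in the resting arrays, again with MCT lowest, but all its values were dim. Such a limit is passed by chance in about 1 in 20 groups, and the arrays of a group are different lines.

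Ctsh differed in direction between the tissues, with both kidney lines higher after stimulation and both mammary lines lower, a difference of 0.65 between the mean changes. This difference was not tested. The split did not hold with arrays shifted to a common median, where the NMuMG change was 0.10, nor on the deposited scale, where it was 0.28. The second Ctsh probe set did not show it either, with a change of -1.42 in MCT.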

How the results depend on the processing

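In limma's response over 4 lines, 0 genes passed in the main setting. The count was 236 on values as deposited, 28 with arrays shifted to the same median, 1 with an offset of 1 and 8 with an offset of 64; the cause was not tested. Leaving out 1 line gave 0 to 14 genes, the 14 without EpH4. Resting kidney against mammary lines gave 6 genes on values as deposited, none of them a member, and 0 in the other settings run. Without the replicate block that pairs the arrays of a line the response count was 0. Members at least 2-fold higher in each line numbered 2 to 3 when 1 line was left out, the 3 without NMuMG, and 2 in the other settings run. Resting kidney minus mammary turned sign where it was near 0. For Cst3 it was 0.01 as deposited, 0.18 without MCT and 0.26 without NMuMG. For Ctsb it was 0.013 with the mean of both arrays of a line, 0.19 without MCT and 0.42 without NMuMG, and for Ctsl -0.18 without EpH4; the cause was not tested. The mean change turned sign for Ctss without EpH4 (0.013), Ctsh without mProx (-0.037) and Ctsb without MCT (-0.082), with 87 of 90 such values keeping their sign, as did 110 of 117 tissue differences. No detection calls were used, and dim levels have no reliable size.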
